A study of Mus musculus with 11 samples.

Results

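Ribosomal protein pseudogene rows are the rows of the deposited bulk RNA-seq count table whose gene symbol starts with Rpl or Rps and contains -ps. They number 297 of the 32469 rows, 183 named for proteins of the large ribosomal subunit (Rpl) and 114 for proteins of the small subunit (Rps). The symbol before -ps names the parent gene, and the 297 rows have 61 parents, with between 1 and 24 rows each. All 61 parents have a row of their own in the table.

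The libraries come from T cells sorted out of Lewis lung carcinoma (LLC) tumors, a mouse lung cancer line grown under the skin of both flanks of 8-week-old female C57BL/6 (CD90.2) mice. The sorted gate was CD8+PD-1+Ly108+TIM-3-, with a further surface protein also gated out, and holds precursor exhausted T cells, the fraction of exhausted CD8+ T cells that keeps the ability to divide. There were 5 untreated libraries and 6 from mice given anti-LAG-3 (aLAG3, clone C9B7W, 200 µg into the peritoneum on days 14 and 16), an antibody against an inhibitory receptor of T cells. Both groups carried the tumors, and the sources differ on the day on which the later tumor was excised. The 11 libraries held between 313524 and 1901374 counts, with depth following the primer barcode named in the labels: 6 libraries of barcode 9 (3 of each group), 4 of barcode 8 (1 untreated and 3 aLAG3) and 1 of barcode 10 (untreated). Summed CD8 T cell markers (6 of 6 genes detected) stood at 5031 to 5296 counts per 1e6 counts (CPM) in untreated and 5088 to 5584 CPM in aLAG3 libraries. Summed myeloid markers (9 of 9 detected) stood at 22.1 to 58.3 and 23.6 to 149.9 CPM, and summed endothelial markers at 137.4 to 199.7 and 147.3 to 213.7 CPM; their part in the results was not tested. Markers of CD4 T cells, B cells, tumor epithelium, fibroblasts and red cells summed to at most 12.6 CPM per list in any library. The precursor exhausted T cell genes Pdcd1, Slamf6 and Tcf7 summed to 738.7 to 999.2 CPM in untreated and 669.8 to 951.9 CPM in aLAG3 libraries.

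Ribosomal proteins are among the most highly expressed genes of any dividing cell, with a single functional gene for nearly every protein. Their spliced, polyadenylated messenger RNAs have been copied back into the mammalian genome many times by reverse transcription, and the resulting processed pseudogenes lack introns and mostly lack a promoter. A young copy still carries nearly the same letters as the spliced message of its parent, so a short read from the message can align to both. The authors aligned reads to reference RNA rather than to the genome, and how a read that matches several transcripts was counted is not given in the sources used here.

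The 3 families below show examples of the likeness between pseudogene rows and parents. Each line gives coding bases from the start codon on (90 in the parent), from GENCODE M21 transcripts on GRCm38, with capitals for bases that differ from the parent.
Rps16: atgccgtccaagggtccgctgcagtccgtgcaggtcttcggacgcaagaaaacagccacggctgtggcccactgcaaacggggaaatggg
Rps16-ps2: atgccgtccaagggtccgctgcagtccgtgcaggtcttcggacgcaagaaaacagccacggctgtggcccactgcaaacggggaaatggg
Rps16-ps3: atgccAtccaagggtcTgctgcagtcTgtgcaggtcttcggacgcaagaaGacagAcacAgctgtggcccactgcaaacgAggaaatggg
Rps24: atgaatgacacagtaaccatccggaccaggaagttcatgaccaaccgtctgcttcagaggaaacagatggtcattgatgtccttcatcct
Rps24-ps3: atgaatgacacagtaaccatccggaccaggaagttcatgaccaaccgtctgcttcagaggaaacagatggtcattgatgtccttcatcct
Rps24-ps2: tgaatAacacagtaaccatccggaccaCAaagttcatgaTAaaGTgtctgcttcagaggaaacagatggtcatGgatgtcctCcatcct
Rpl27: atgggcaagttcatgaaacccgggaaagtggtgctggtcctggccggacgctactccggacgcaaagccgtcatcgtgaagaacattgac
Rpl27-ps1: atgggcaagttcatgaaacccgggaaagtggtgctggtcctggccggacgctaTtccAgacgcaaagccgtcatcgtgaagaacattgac

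Rps16 and its copies frame the range of read counts. Rps16 encodes a protein of the small subunit and lies on chr7:28350652-28353155, plus strand. Rps16-ps2 (chr5:129128077-129128517, minus strand, in an intron of Adgrd1 on the other strand) was identical to the spliced parent over all its 441 bases and held 8236 reads, the most of any pseudogene row. Rps16-ps3 (chr8:10808688-10809128, minus strand, intergenic) differed at 7 of the 90 positions shown, was 91.4% identical to its parent over the aligned length, and held 0 reads in the 11 libraries. A count of 0 of 8773399 in all allows up to 0.342 CPM over the pooled libraries, for counting error only.

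Reads were found on 258 of the 297 pseudogene rows (86.9%), against 74.0% of all rows in the table, and 39 rows had none. In any single library between 198 and 233 rows carried a read, and 182 rows carried a read in every library. Reads were concentrated: the 10 rows with the most reads held 24.2% of the 263544 pseudogene reads, the leading 50 held 68.9% and the leading 100 held 90.8%. The filter on low counts (17.7 CPM in at least 5 libraries) was passed by 158 rows, 87 of the large and 71 of the small subunit. The small subunit rows were fewer and held the larger part of the reads, 52.7% against 47.3%.

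The 297 rows together took 2.85% to 3.10% of a library, and the 61 parents took 13.6% to 14.4%. For comparison, the 465 other rows with -ps in the symbol held 0.622% to 0.668%, and 66 of them passed the same filter.

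Rows whose sequence was nearer to the parent held more reads in the median. Of the 297 rows, 280 matched a GENCODE M21 gene by symbol, 9 by a RefSeq synonym at the same place, and 8 were not matched. Most of the matched rows (272) are annotated as processed pseudogenes, 8 as transcribed processed pseudogenes, 8 as protein coding and 1 as a long intergenic non-coding RNA. Where a row could be aligned to its parent (287 rows), the median identity was 96.7%, with a lowest value of 78.9%. The rows without any read (38 aligned) had a median identity of 89.4% and reached 93.3% at most.

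A finer measure was the share of a row's 50-base stretches that also occur in a transcript of the parent, since a read lying wholly within such a stretch has the same letters in both, while a longer read can reach past it to bases that differ. Among the 50 rows with no shared stretch, 20 held a read and 2 passed the filter. Among the 87 rows with up to 20% shared, the median was 10 reads and 11 passed. Between 20% and 50% shared, 58 of 69 rows passed, with a median of 322 reads. Between 50% and 80%, 47 of 48 rows passed, and above 80% all 35 passed, with medians of 1699.5 and 2379 reads. These last 2 classes held 40.9% and 37.1% of all pseudogene reads. Across the 289 rows with a transcript, the Spearman correlation of the shared percent with reads per 100 parent reads was 0.91, given as a description over rows that share parents, libraries and base composition.

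**Figure D1:**
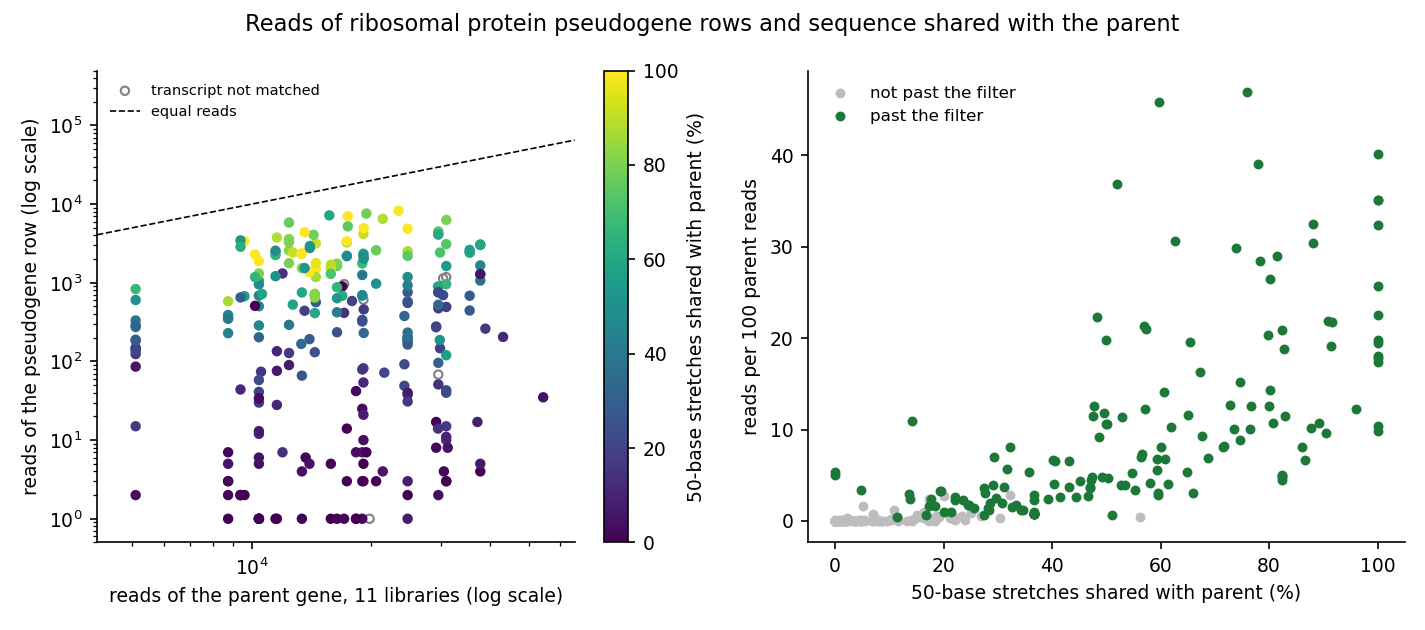
Reads of the pseudogene rows summed over 11 libraries. Left, each point is a row with at least 1 read, against the reads of its parent (log scales, dashed line for equal reads, color for the percent of 50-base stretches shared with the parent). All points lie under the dashed line. Right, reads per 100 parent reads against the shared percent for the 289 rows with a transcript; rows past the filter on low counts (green) lie mostly above 20% shared.

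No row had more reads than its parent. For 13 rows every 50-base stretch occurred in the parent, and none of their stretches was particular to the row. These 13 rows lay on 10 chromosomes and held 47972 reads, 18.2% of the pseudogene reads. They carried between 9.80 and 40.2 reads per 100 parent reads, with a median of 19.7. Among the 153 rows that passed the filter and had a transcript, 33 had no 50-base stretch of their own, and the median row had 25.4% of its stretches found in no other row.

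The highest counts relative to the parent were seen for Rpl17-ps10 with 46.9 reads per 100 parent reads, Rps26-ps1 with 45.8, Rps23-ps1 with 40.2, Rps7-ps3 with 38.99 and Rpl36-ps12 with 36.9. Their identity to the parent was between 99.1% for Rps26-ps1 and 100% for Rps23-ps1. Rps26-ps1 (chr8:107439131-107439579, minus strand, in an intron of Wwp2 on the other strand) and Rps7-ps3 (chrX:152909505-152910155, minus strand, intergenic) are annotated as transcribed. Rpl36-ps12 (chr6:108140120-108140509, minus strand) lies in an intron of Sumf1 on the same strand. Rps23-ps1 (chr3:37714740-37715164, plus strand) overlaps an exon of Gm5148 on the other strand, and how the counting treated strand is not given in the sources used here.

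At the other end, among the 166 rows with at least 110 reads, Rps2-ps6 had 0.388 reads per 100 parent reads, Rplp0-ps1 had 0.476 and Rpl34-ps2 had 0.493. Rplp0-ps1 (chr3:93278141-93279073, plus strand, in an intron of Flg on the same strand) shared 11.4% of its stretches with Rplp0, which encodes a protein of the ribosomal stalk. Rpl34-ps2 (chr13:116153781-116154134, plus strand, intergenic) shared 18.7% with Rpl34. Rps2-ps6 was an exception to the order by sequence, with 56.2% of its stretches shared and 120 reads.

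By family, the pseudogene rows held a median of 18.7% of the reads of pseudogene rows and parent together. They held over 10% in 36 of 61 families and under 1% in 15. In the Rpl17 family they exceeded the parent: 8 rows summed to 17587 reads against 12422 for Rpl17, a protein near the exit tunnel of the large subunit, or 58.6% of the family. That share ranged from 56.4% to 60.4% over the 11 libraries. Families with high shares below that were Rpl36 with 42.8%, Rps23 with 41.2% and Rpl31 with 40.5%. The Rps12 family had the most rows, 24, of which 23 held reads and 17 passed the filter. No read at all fell on the rows named for Rpl35, Rpl37a and Rps4l, each the only row of its parent. Rps4l, counted here as a parent, is itself annotated as a transcribed processed pseudogene and held 24 reads.

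If reads were divided between a row and its parent in a fixed ratio, the row's share of the pair would vary over libraries by counting error alone. This was measured as chi-square divided by its degrees of freedom for the counts of each row and its parent over the 11 libraries, where counting error alone gives about 1. Over the 166 rows with at least 110 reads the median was 1.15, the quartiles were 0.76 and 1.49, and 18 rows exceeded 2. Set against the library total instead, the same rows had a median of 1.37, and 34 exceeded 2. The value was smaller against the parent than against the library in 115 of 166 rows. The parents themselves varied more against the library total (median 4.38 over 60 parents), a statistic that grows with the number of reads. All 7853 rows with at least 110 reads had a median of 1.44 against the total.

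A near-constant share was seen for Rpl13-ps6, Rps16-ps2 and Rps12-ps3. Rpl13-ps6, 99.5% identical to Rpl13, made up between 16.2% and 17.3% of the reads of the pair in the 11 libraries (chi-square per degree of freedom 0.25). Rps16-ps2 made up between 24.5% and 27.5% (0.93), beside a parent that itself varied little against the library total (2.11, median of the parents 4.38). Rps12-ps3, annotated as protein coding and identical to Rps12 over its aligned length, made up between 14.9% and 18.1% (1.03). The largest departure among the named rows was Rps23-ps1, between 26.3% and 33.1% of the pair's reads (2.42), although its letters equal those of the parent. Rps23-ps1 varied less against the library total (1.27) than against Rps23.

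Levels below are CPM scaled by the trimmed mean of M-values (TMM). Correlations of log2 CPM across the 11 libraries were computed for 166 pairs of row and parent. The median Pearson r was 0.36, with r above 0 in 131 pairs, a lowest r of -0.69 and a median Spearman rho of 0.31. After Benjamini-Hochberg adjustment over the 166 pairs, 13 passed 0.05 (36 before adjustment, permutation test, 2-sided, 100000 permutations). The permutations took no account of primer barcode, and 2 of the 13, Rpl27-ps1 and Rpl27-ps3, belong to a family whose libraries fall into clusters by barcode. Pairs of other families were not free of barcode differences either, though none of these passed adjustment in the comparison given below. On the log2 scale (barcode 9 minus 8), Rps13 differed by -0.24 and Rps13-ps1 by -0.32, and Rpl34 by -0.21 and Rpl34-ps1 by -0.26. Without the Rpl27 family, 10 of 163 pairs passed, Rps13-ps1 (r = 0.88) among them, and the highest r was 0.90. Within the 6 libraries of primer barcode 9, r was above 0 in each of the 13 pairs, from 0.42 for Rps13-ps1 to 0.98 for Rpl38-ps2, with an exact permutation p under 0.05 in 5 of them (15 of all 166 pairs). Over all pairs the median r was 0.28 without the 2 libraries farthest from the median parent level and 0.41 within primer barcode 9. Raw log2 counts gave a median r of 0.98, which depth shared by all rows of a library sets. Ranked among the 61 parents by r, the row's own parent was first in 14 of 166 cases and had a median rank of 11.5; the median r with the other parents was 0.08.

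Rows of several parents passed the adjustment. Rpsa-ps10, named for the laminin receptor protein of the small subunit, had r = 0.87 with Rpsa (permutation p = 0.00063, adjusted p = 0.0154) and rho = 0.77 (permutation p = 0.0076). Without the 2 farthest libraries r was 0.77, and within primer barcode 9 it was 0.71 (n = 6, exact permutation p = 0.16). Rpl13-ps6 had r = 0.84 with Rpl13 (permutation p = 0.0018, adjusted p = 0.0266) and rho = 0.74 (permutation p = 0.0130), with 0.86 without the 2 farthest libraries and 0.85 within primer barcode 9 (exact permutation p = 0.022). Rpl36-ps12 had r = 0.83 with Rpl36 (permutation p = 0.00192, adjusted p = 0.0266) and rho = 0.82 (permutation p = 0.00352), with 0.88 without the 2 farthest libraries and 0.94 within primer barcode 9 (exact permutation p = 0.0042). Rps12-ps3 had r = 0.82 with Rps12 (permutation p = 0.00183, adjusted p = 0.0266) and rho = 0.78 (permutation p = 0.00605), with 0.69 without the 2 farthest libraries and 0.80 within primer barcode 9 (exact permutation p = 0.053). Rps23-ps1, identical to its parent over the aligned length, did not pass: r was -0.17 with Rps23 (permutation p = 0.62) and rho -0.21 (permutation p = 0.54), with -0.21 without the 2 farthest libraries and 0.23 within primer barcode 9 (exact permutation p = 0.70).

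In the Rpl27 family the libraries separated by primer barcode. Rpl27, a large subunit protein (chr11:101442298-101445529, plus strand), was the parent that varied most against the library total (chi-square per degree of freedom 41.2, next highest 23.9). It stood at 1614, 1792 and 1894 CPM in untreated replicates 1, 3 and 5 and at 1610, 1645 and 1588 CPM in aLAG3 replicates 6, 7 and 9, the libraries of primer barcode 9. In those of barcode 8 it stood at 1065 CPM in untreated replicate 4 and at 956, 936 and 1084 CPM in aLAG3 replicates 8, 10 and 11. The single library of barcode 10, untreated replicate 2, had 1486 CPM. The libraries of barcodes 9 and 8 did not overlap.

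Rpl27-ps3, whose 50-base stretches all occur in Rpl27, showed the same order. Its level was 539, 528 and 616 CPM in untreated replicates 1, 3 and 5, 510, 537 and 516 CPM in aLAG3 replicates 6, 7 and 9, and 498 CPM in untreated replicate 2. In the barcode 8 libraries it was 392 CPM in untreated replicate 4 and 357, 306 and 329 CPM in aLAG3 replicates 8, 10 and 11. Rpl27-ps1, with 2 differing bases in the stretch printed above and 52.9% of its 50-base stretches shared, stood at 187.9 ± 13.6 CPM (SD, n = 6) with barcode 9 and 126.3 ± 8.35 CPM (SD, n = 4) with barcode 8. Rpl27-ps2, with 19.4% shared, stood at 55.8 ± 16.2 and 41.6 ± 8.09 CPM, and its libraries overlapped. Rpl27-ps1 and Rpl27-ps2 were named after their values were seen.

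Primer barcodes 9 and 8 were then compared over all genes, with treatment as a covariate, in 10 libraries; this comparison was chosen after seeing the data. The edgeR quasi-likelihood test called 26 of 7827 genes (0.332%) at an adjusted p under 0.05, 23 of them lower with barcode 8. Of 166 pseudogene rows tested 2 were called, and of 60 parents 1. Rpl27 differed by 0.70 on the log2 scale (barcode 9 minus 8, SE 0.067, adjusted p = 9.64e-07), Rpl27-ps3 by 0.59 (SE 0.086, adjusted p = 0.000627) and Rpl27-ps1 by 0.55 (SE 0.12, adjusted p = 0.0398). Rpl27-ps3 remained a near-constant part of the reads of the pair throughout, between 22.7% and 27.2% over the 11 libraries (chi-square per degree of freedom 1.01). Because these libraries fall into clusters by barcode, the r of these rows is given only within barcode 9: 0.80 for Rpl27-ps3 (n = 6, exact permutation p = 0.075), 0.64 for Rpl27-ps1 (exact permutation p = 0.16) and 0.52 for Rpl27-ps2 (exact permutation p = 0.27).

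**Figure D2:**
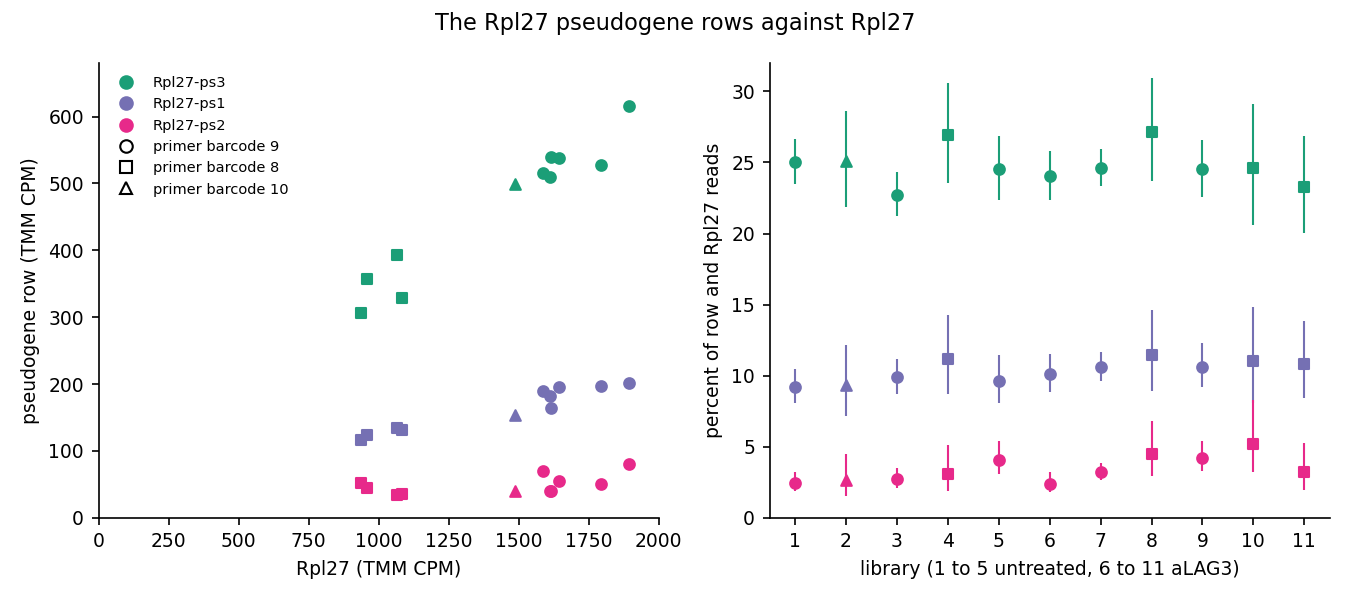
Left, CPM of 3 Rpl27 pseudogene rows against CPM of Rpl27, a point per library, with marker shape for the primer barcode. Right, the row as a percent of the reads of row and Rpl27 in each library with 95% Wilson intervals. The 4 barcode 8 libraries (squares) have the lowest Rpl27 levels, 936 to 1084 CPM, while the percent of Rpl27-ps3 stays between 22.7% and 27.2%.

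aLAG3 and untreated libraries were compared to ask whether the treatment changed the level of these rows. The edgeR quasi-likelihood test called 0 of 6949 genes (0%) at an adjusted p under 0.05 and 259 (3.73%) at an unadjusted p under 0.05. Of the 158 pseudogene rows tested, 0 were called and 3 (1.90%) had an unadjusted p under 0.05; DESeq2 called 0 and had 2 with an unadjusted p under 0.05. The edgeR count moved with the libraries used. It was 8 of 172 rows within primer barcode 9 (4.67% over all genes) and 10 of 154 without untreated replicate 3 (3.49% over all genes). Over the 11 libraries the log2 fold change (aLAG3 minus untreated) was above 0 in 84 rows and below 0 in 74, with a median of 0.01 against 0.00 over all genes. This balance had no stable direction: within primer barcode 9 it was 73 above and 99 below (median -0.03), and with 1 library left out it lay between 77 above and 89 below without untreated replicate 2 and 94 above and 70 below without untreated replicate 5. It lay within 0.2 of 0 in 136 of 158 rows, and its median standard error was 0.13. Of 60 parents tested 0 were called, 2 had an unadjusted p under 0.05, and the log2 fold changes ran from -0.25 to 0.12, with 30 above 0 and 30 below. Within primer barcode 9, 0 of the 60 parents were called, 10 had an unadjusted p under 0.05, and 19 were above 0 and 41 below. Over all genes in that fit, 424 of 9071 (4.67%) had an unadjusted p under 0.05 by edgeR, and 50.4% were above 0. Of the 79 cytosolic ribosomal protein genes 0 were called and 5 had an unadjusted p under 0.05. Each library is from a different mouse, and in bulk RNA fewer cells of a type and less RNA per cell cannot be told apart.

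Of 87 large subunit rows 47 were higher in aLAG3 and 40 lower, with a median log2 fold change of 0.01. Of 71 small subunit rows 37 were higher and 34 lower, with a median of 0.02.

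**Figure D3:**
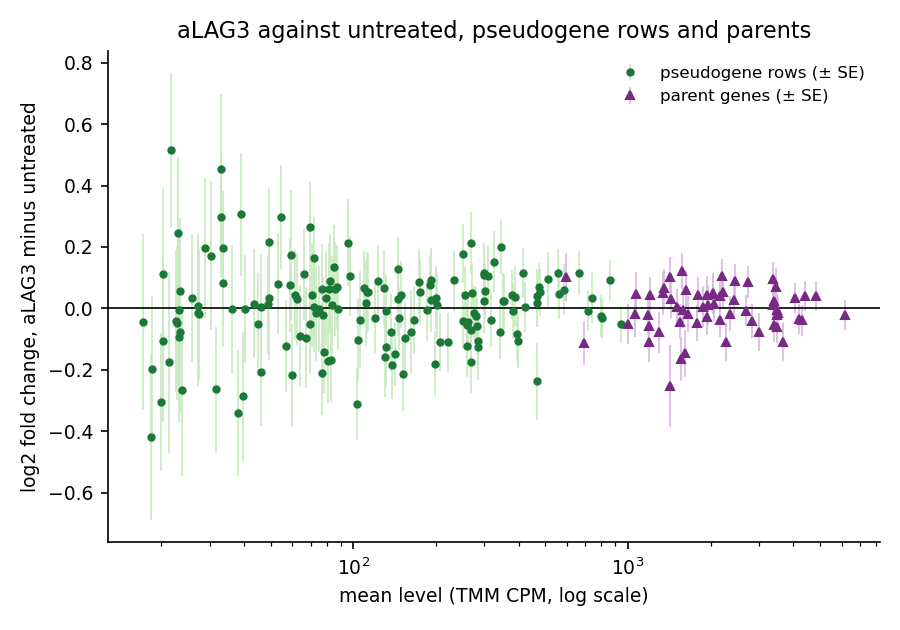
Log2 fold change (aLAG3 minus untreated, edgeR) against mean TMM-scaled CPM (log scale) for 158 pseudogene rows (circles) and 60 parents (triangles), with standard errors. 136 of the 158 rows lie within 0.2 of 0, and the widest error bars are at low levels.

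The row with the smallest p was Rps24-ps3 (chrX:79195047-79195448, plus strand, intergenic), the copy of Rps24 that matches its parent over the coding bases printed above. It stood at 116, 103, 106, 119 and 130 CPM in untreated replicates 1 to 5 and at 97.5, 94.1, 80.8, 88.6, 103 and 91.2 CPM in aLAG3 replicates 6 to 11. The groups did not overlap, by the gap between 103.5 CPM in untreated replicate 2 and 103.0 CPM in aLAG3 replicate 10. It was the only pseudogene row of 158 without overlap, while 34 of 6949 genes (0.489%) had none. The log2 fold change was -0.31 (SE 0.12), with an unadjusted p of 0.0133 and an adjusted p of 0.999 by edgeR. Rps24 itself stood at 3379 CPM in untreated (SD 108, n = 5) and at 3434 CPM in aLAG3 libraries (SD 146, n = 6), with a log2 fold change of 0.02 (SE 0.049, adjusted p = 0.999 by edgeR). The row's share of the reads of the pair was between 2.98% and 3.59% in the 5 untreated and between 2.16% and 2.89% in the 6 aLAG3 libraries. These shares did not overlap either, in 1 of the 158 rows tested (0.633%), and the difference in share was not tested. Rps24-ps2, with 9 differing bases and 1 gap in the stretch printed above, held 14 reads in 6 libraries and was not tested.

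Rps2-ps10 and Rpl19-ps1 had the next smallest p values, and neither passed adjustment. Rps2-ps10, named for a small subunit protein, stood at 319, 292, 376, 295 and 302 CPM in the untreated and at 397, 360, 339, 379, 348 and 377 CPM in the aLAG3 libraries. Untreated replicate 3 lay among the aLAG3 libraries, and the log2 fold change was 0.20 (SE 0.088, unadjusted p = 0.0308, adjusted p = 0.999 by edgeR). Rpl19-ps1 stood at 244.0 CPM in untreated (SD 23.7, n = 5) and at 288.8 CPM in aLAG3 libraries (SD 36.2, n = 6), with a log2 fold change of 0.21 (SE 0.10, unadjusted p = 0.0419 by edgeR), with overlapping groups. Rps12-ps14 had the highest log2 fold change of the rows tested, 0.51 (SE 0.25, unadjusted p = 0.0507 by edgeR), on 6 to 46 reads per library. Rpl27-ps3 was next by p, at 514.6 CPM in untreated (SD 80.9, n = 5) and 425.8 CPM in aLAG3 libraries (SD 106.1, n = 6), with a log2 fold change of -0.24 (SE 0.13, unadjusted p = 0.0696 by edgeR). Of the 4 libraries of primer barcode 8, where it was lowest, 3 are aLAG3, and within barcode 9 the log2 fold change was -0.10.

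The most abundant rows differed little. Rps16-ps2 stood at 958.6 CPM in untreated (SD 37.5, n = 5) and at 925.0 CPM in aLAG3 libraries (SD 30.9, n = 6), with a log2 fold change of -0.05 with a 95% interval of -0.17 to 0.07. Rps7-ps3 stood at 830.0 ± 69.8 and 887.6 ± 25.3 CPM, a log2 fold change of 0.09 (95% interval -0.04 to 0.22). Rps26-ps1, whose parent protein lies at the exit channel of the messenger RNA, stood at 807.0 ± 52.9 and 794.3 ± 50.4 CPM, a log2 fold change of -0.02 (95% interval -0.16 to 0.11). Rps23-ps1, named for a protein of the decoding center, stood at 815.6 ± 45.9 and 797.2 ± 32.9 CPM, a log2 fold change of -0.03 (95% interval -0.16 to 0.10). Rpl17-ps10 stood at 633.6 ± 31.9 and 690.3 ± 52.4 CPM, a log2 fold change of 0.12 (95% interval -0.02 to 0.26). These intervals hold 0, which does not show that the levels were equal. The 7 other rows among the 12 highest had log2 fold changes between -0.01 for Rpl13-ps6 and 0.12 for Rps6-ps4.

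**Figure D4:**
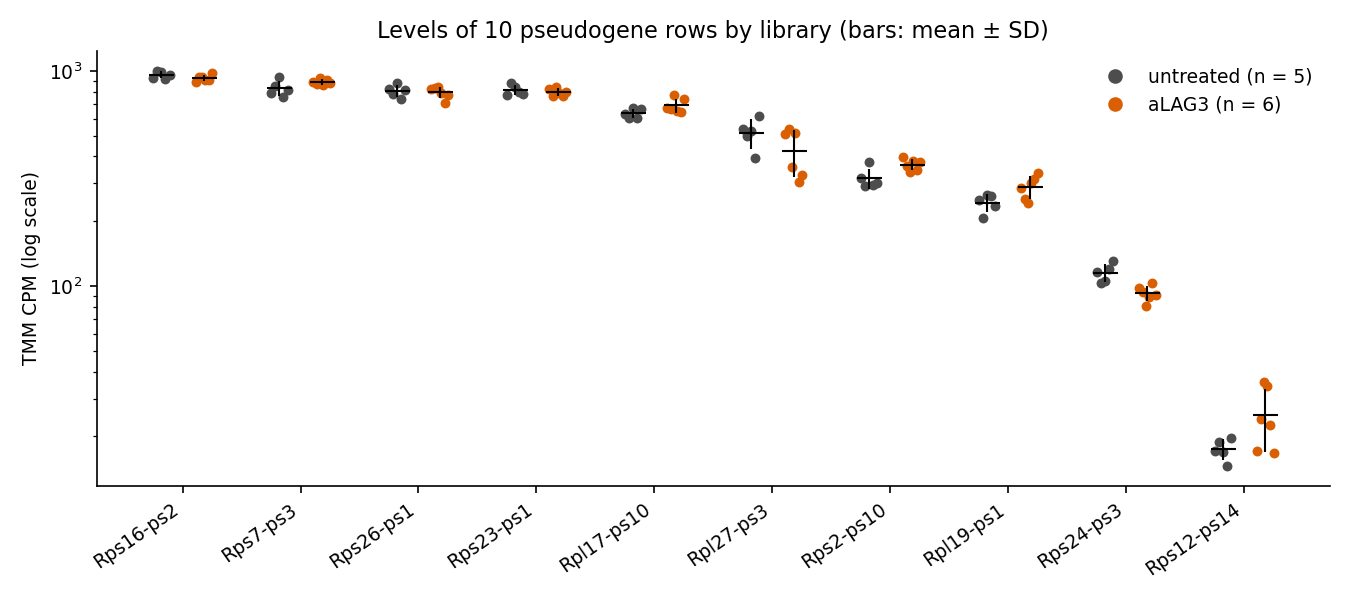
TMM-scaled CPM (log scale) of 10 pseudogene rows in the 5 untreated and 6 aLAG3 libraries, a point per library, with bars for mean ± SD. The groups overlap for every row shown except Rps24-ps3, with means of 115.1 and 92.5 CPM.

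Summed over the 297 rows, the level was between 28387 and 31295 CPM in untreated and between 29510 and 31214 CPM in aLAG3 libraries, a log2 difference of 0.02 against a pooled SD of 0.044. The summed parents ran from 135411 to 145889 and from 135839 to 143100 CPM, a log2 difference of 0.00 against an SD of 0.037. Within primer barcode 9 alone both summed differences were negative, with values given further below. As a percent of the reads of pseudogene rows and parents together, the rows held 17.58% ± 0.15 (SD, n = 5) in untreated and 17.75% ± 0.19 (SD, n = 6) in aLAG3 libraries. The groups overlapped, from 17.3% to 17.7% and from 17.4% to 17.9%, with 4 of the 6 aLAG3 libraries above the highest untreated library. The 95% Wilson interval of a library ran from 17.0% to 17.7% at 317449 counts (untreated replicate 2) and from 17.7% to 18.0% at 1901374 counts (aLAG3 replicate 7), for counting error only.

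**Figure D5:**
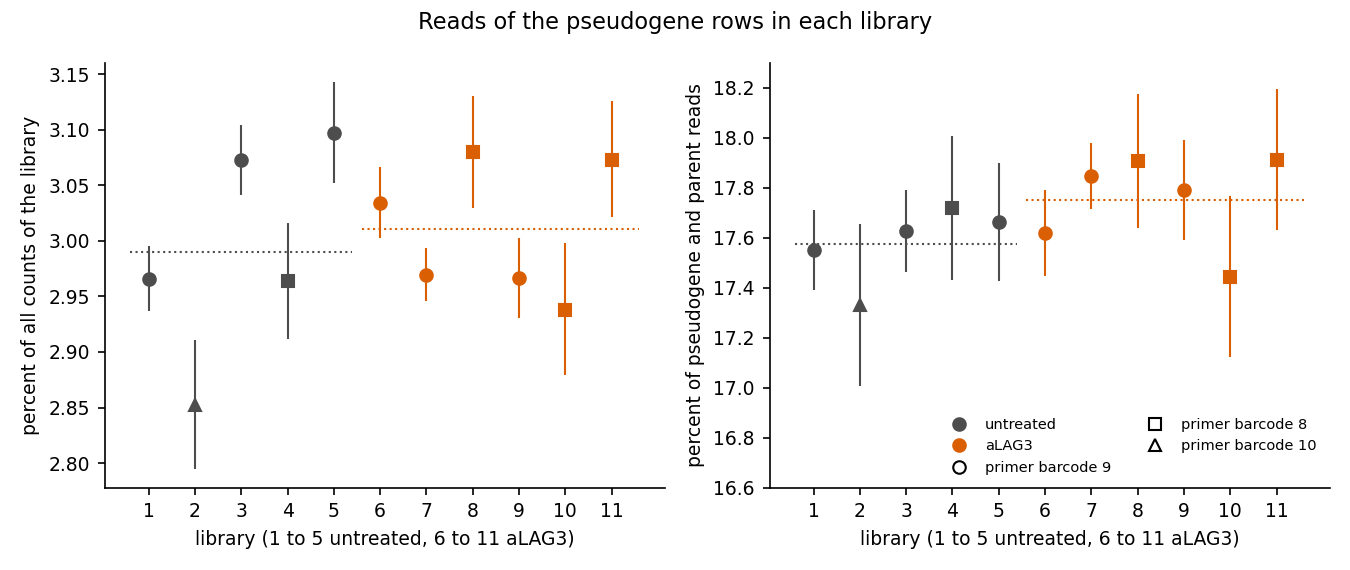
Reads of the 297 pseudogene rows in each library, with 95% Wilson intervals and dotted lines for group means; marker shape gives the primer barcode. Left, as a percent of all counts of the library (2.85% to 3.10%). Right, as a percent of the reads of pseudogene rows and parents (17.3% to 17.9%), where the groups overlap.

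When the counts of every pseudogene row were added to its parent before testing, 0 of 60 parents were called and 2 again had an unadjusted p under 0.05 by edgeR. The log2 fold change of a parent moved by 0.0066 in the median and by at most 0.039, for Rpl17, and 1 parent changed sign.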

How the data were processed

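RNA of 11 libraries was measured, 5 untreated and 6 aLAG3. The authors trimmed reads with Cutadapt, used Bowtie2 to align the reads to GRCm38 reference RNA and deposited raw counts of reads per gene symbol. The submitters' processing notes name cutadapt 4.1 and Bowtie2 2.4.5. The counting of reads that match several transcripts, and any use of strand, are not given in the sources used here. Since each read is placed on a transcript, the split between a row and its parent depends on that step. Pseudogene rows were selected by symbol. All genes were tested with the edgeR 4.0.16 quasi-likelihood test (R 4.3.3) after filterByExpr (at least 10 counts in the median library, in 5 libraries, and 15 in all) and TMM scaling, with Benjamini-Hochberg adjustment over all genes tested. edgeR's likelihood ratio test, which the study used, and DESeq2 1.42.0 were alternatives. CPM is TMM-scaled, except in marker sums, which use total counts. Correlations used log2 CPM with a prior count of 2. Group intervals are 1.96 standard errors wide on each side. Identity was computed with BLAST 2.17.0 and shared stretches from GENCODE M21 transcripts. The fit and the chi-square statistic were tested on simulated data. Depth was 313524 to 1901374 counts per library, so a count of 0 allows up to 9.57 CPM in the shallowest and 1.58 CPM in the deepest library (3 counts).

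The named rows are the 12 with the highest mean CPM, the 5 with the smallest p, and, among rows with at least 110 reads, the 5 highest and 3 lowest in reads per parent read. Rows and lists were chosen with earlier results of these data known. Rps16-ps3, Rps24-ps2, Rpl27-ps1, Rpl27-ps2, Rpl18-ps1, Rpl36a-ps3, Rps13-ps1, Rpl34-ps1 and Rpl38-ps2 were named after their values were seen. Alternatives were another normalization (RLE), no filter, the other tests, the primer barcode as covariate, primer barcode 9 alone and each library left out. Values of the genes of the surface proteins gated out in the sort, and of 1 parent gene's family, are not reported here.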

Additional observations from a re-analysis of the deposited data

Results flagged for a closer look

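Each of 22 measures (summed counts, summed pseudogene CPM, the pseudogene percent, and log2 CPM of 19 named rows) was searched in both groups for a library standing far from the rest of its group by Dixon's criterion. Of the 44 sets, 0 passed, where chance gives about 2.2.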

How the results depend on the processing

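No paired analysis was possible because the groups share no replicate number. The count of pseudogene rows called at an adjusted p under 0.05 was 0 under every alternative run, including DESeq2, the likelihood ratio test, the primer barcode as covariate, primer barcode 9 alone and each library left out. Over all genes, 3 were called without the filter on low counts, and leaving out a library gave between 0 and 2, with 2 only without aLAG3 replicate 7. The 3 rows with an unadjusted p under 0.05 became 10 without the filter (258 rows tested instead of 158, with more low counts) and 8 of 172 within primer barcode 9. Over all genes the shares in these fits were 4.56% and 4.67%. With a library left out the rows with an unadjusted p under 0.05 numbered between 2 and 10. Without untreated replicate 3 they were 10 of 154 (3.49% over all genes). They were 6 of 166 without untreated replicate 2 (4.36% over all genes) and 6 of 152 without aLAG3 replicate 7 (5.34%). Without aLAG3 replicate 10 they were 6 of 166 (4.09%), and without untreated replicate 4 they were 5 of 166 (3.47%). The cause was not tested. Within primer barcode 9 alone the log2 difference was -0.030 for the summed pseudogene rows and -0.044 for the summed parents. For rows with at least 95% of stretches in the parent, an alternative chosen after seeing the data, it was -0.046. The median shared part of a row, 22.2% with 50-base stretches, was 41.1% with 30-base and 13.6% with 67-base stretches, as shorter stretches match more often. Log2 fold changes near 0 changed sign within primer barcode 9: Rpl13-ps6 to 0.016, Rps12-ps3 to -0.11, Rps23-ps2 to -0.052, Rps27a-ps2 to -0.020 and Rpsa-ps10 to -0.029. Without the filter Rpl13-ps6 became 0.0011. With a library left out, Rpl13-ps6 ranged from -0.037 to 0.014, Rps12-ps3 from -0.0054 to 0.11, Rps26-ps1 from -0.052 to 0.010 and Rps27a-ps2 from -0.045 to 0.079. Rps24-ps3 ranged from -0.35 to -0.27 with a library left out and was -0.31 within primer barcode 9. The median log2 fold change of the rows, 0.01, was -0.03 within primer barcode 9 and between -0.01 and 0.03 with a library left out, and the parents with an unadjusted p under 0.05 numbered 10 within primer barcode 9 and between 0 and 4 with a library left out. The 4 libraries of barcode 8 and the single one of barcode 10 held 313524 to 451465 counts, where 3 counts stand for 9.57 to 6.65 CPM.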

Other observations

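Of the 153 rows past the filter that had a transcript, 2 shared no 50-base stretch with the parent they are named for (5 further rows past the filter had no matched transcript and were not measured). Both were named after their values were seen. Rpl18-ps1 (chr1:60900898-60901422, plus strand) lies in an intron of Ctla4, which encodes an inhibitory receptor of T cells, on the same strand. BLAST found no alignment of it to Rpl18. Rpl18-ps1 held 899 reads in the 11 libraries, a mean of 104 CPM, with 53.2% of its stretches found in no other row and 44.7% found in transcripts of another gene. Its counts varied against those of Ctla4 (3047 reads) with a chi-square per degree of freedom of 1.82, and against those of Rpl18 (16925 reads) with 1.82. Its log2 fold change was -0.10 (SE 0.13, adjusted p = 0.999 by edgeR). Rpl36a-ps3 (chr6:136488807-136489127, plus strand, intergenic) was 87.5% identical to Rpl36a, had 81.6% of its stretches in transcripts of another gene, and held 509 reads.

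Position and annotation went with read number in part. The 217 intergenic rows had a median of 128 reads and 104 passed the filter, and the 49 rows in introns on the other strand had a median of 422 reads with 29 past the filter. The 19 rows in introns of a protein-coding gene on the same strand had a median of 1069 reads, and 16 passed. The highest median, 3869 reads, was that of 4 rows on an exon of a gene on the other strand, all 4 past the filter. The median percent of stretches shared with the parent rose alongside, from 19.2% to 40.1%, 49.9% and 80.8%, and its part in the difference was not tested. The 8 rows annotated as transcribed pseudogenes held between 3 and 7588 reads, and the 8 annotated as protein coding between 2 and 4884.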
